A study of Mus musculus with 12 samples.

Results

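The T cell receptor complex and its co-receptors were followed here through 9 genes, looked up by symbol among the 34678 gene symbols of the expression files, and each was found once. They were the CD3 chain genes Cd3e, Cd3d and Cd3g, the zeta chain gene Cd247, the co-receptor genes Cd4, Cd8a and Cd8b1, and the kinase genes Lck and Zap70. The samples were 12 subcutaneous tumors grown from LLC1-shLkb1 cells, a mouse Lewis lung carcinoma line carrying a short hairpin RNA against Lkb1, in C57BL/6 mice of both sexes aged 5 to 8 weeks. All 12 tumors came from this knockdown line, so no arm compares Lkb1 levels. The 4 arms held 3 tumors each: vehicle, palbociclib (an inhibitor of the cell cycle kinases CDK4 and CDK6, 100 mg/kg by mouth), anti-PD-1 (an antibody that blocks the PD-1 checkpoint receptor, 200 µg per mouse), and the combination of both. Tumors were collected 2 weeks after treatment began, and RNA of the whole tumor was sequenced, with host stroma, blood cells and any adjoining tissue included. The labels do not say that replicate tumors of an arm came from separate mice, so the p-values measure the spread between these samples.

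T cells recognise peptide antigens through a receptor whose variable alpha and beta chains cannot signal by themselves. The CD3 epsilon, delta and gamma chains and the zeta chain carry the signalling motifs of the complex. CD4 binds MHC class II and CD8 binds MHC class I, and both bring the kinase LCK to the receptor. LCK phosphorylates the motifs, and ZAP-70 docks on them and passes the signal on. In tumors these genes are commonly read as a measure of T cell content, although NK cells also carry the zeta chain, LCK and ZAP-70, and some macrophages and dendritic cells carry CD4 or CD8 alpha.

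All 9 members were scarce. Expression was given as FPKM (mapped fragments scaled by gene length and by the depth of the library), and the members' mean over the 12 tumors ran from 0.146 FPKM for Cd247 to 1.98 FPKM for Cd3g as deposited. The steps between low FPKM values allowed whole fragments to be recovered, which put the depth at 14871817 to 20282476 fragments per tumor. All 9 members passed the filter for testing, a mean of at least 0.1 FPKM, which 15350 genes passed. Cd247 did so through the arms given palbociclib: its mean was 0.0846 FPKM over the 6 tumors without palbociclib and 0.208 FPKM over the 6 with it. Without the filter all 9 were tested as well. Vehicle replicate 1 was the highest tumor of its arm and combination replicate 2 the lowest of its arm in all 9 members, so the counts of calls are also given without each.

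The members lie in a few loci of the mouse genome (build GRCm38, GENCODE M21 gene models). Cd3g (chr9:44969572-44980431, minus strand) and Cd3d (chr9:44981786-44987339, plus strand) start back to back with 1355 bases between them, and Cd3e (chr9:44998740-45009627, minus strand) lies 11401 bases beyond Cd3d. Cd8b1 (chr6:71322788-71337494) and Cd8a (chr6:71373427-71379173) are both on the plus strand, 35933 bases apart. Cd4 is on the same chromosome at chr6:124864692-124888221, minus strand. Cd247 (chr1:165788681-165877277, plus strand) and Zap70 (chr1:36761798-36782818, plus strand) are far apart on chromosome 1, and Lck is at chr4:129548344-129573641, minus strand. Cd247 shares 3007 exon bases with Pou2f1 on the opposite strand and 206 with Gm16565 on its own strand. Whether the counting used strand is not given in the sources used here, so its values are uncertain.

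The promoters of the neighbouring CD3 genes are shown because these 3 genes moved together across the tumors, and that of Cd8a because its levels followed those of Cd3g most closely. Each is the RefSeq window of build GRCm38.p6, 300 bases of which most lie before the gene's start, printed 5′ to 3′ on the gene's strand, and capitals mark matches to the motif letters named after the sequences. Cd3g is chr9:44980382-44980681 (minus strand), Cd3d chr9:44981536-44981835 (plus strand), Cd3e chr9:45009562-45009861 (minus strand) and Cd8a chr6:71373177-71373476 (plus strand).
Cd3g: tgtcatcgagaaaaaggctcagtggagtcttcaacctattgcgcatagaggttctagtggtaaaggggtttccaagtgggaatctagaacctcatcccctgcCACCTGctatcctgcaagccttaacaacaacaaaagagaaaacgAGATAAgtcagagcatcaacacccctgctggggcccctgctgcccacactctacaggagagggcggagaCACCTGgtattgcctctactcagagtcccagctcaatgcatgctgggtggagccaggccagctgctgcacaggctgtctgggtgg
Cd3d: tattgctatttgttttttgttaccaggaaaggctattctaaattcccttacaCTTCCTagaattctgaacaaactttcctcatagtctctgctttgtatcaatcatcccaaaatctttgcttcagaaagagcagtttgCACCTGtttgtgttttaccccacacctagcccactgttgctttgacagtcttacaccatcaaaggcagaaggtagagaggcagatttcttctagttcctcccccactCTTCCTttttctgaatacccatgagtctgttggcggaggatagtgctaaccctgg
Cd3e: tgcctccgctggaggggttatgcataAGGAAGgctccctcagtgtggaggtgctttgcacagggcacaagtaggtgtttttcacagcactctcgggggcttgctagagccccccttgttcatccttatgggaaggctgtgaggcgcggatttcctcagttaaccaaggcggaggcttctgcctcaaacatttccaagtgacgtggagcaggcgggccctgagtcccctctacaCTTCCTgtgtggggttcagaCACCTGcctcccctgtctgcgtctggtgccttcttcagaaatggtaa
Cd8a: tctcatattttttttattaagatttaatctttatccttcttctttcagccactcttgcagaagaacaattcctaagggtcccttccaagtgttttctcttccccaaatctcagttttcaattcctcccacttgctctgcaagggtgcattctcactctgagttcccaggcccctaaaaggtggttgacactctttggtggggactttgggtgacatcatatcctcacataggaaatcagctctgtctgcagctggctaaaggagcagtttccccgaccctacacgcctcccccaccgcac
Motifs of 5 families of lymphocyte transcription factors were searched on both strands, and no matches overlapped. The RUNX factors, which act in the choice between the CD4 and CD8 lineages, were searched as TGTGGT. The ETS family, common at genes of all blood cells, was searched as AGGAAG. Factors of the GATA family, among them GATA-3 of T cells, were searched as AGATAA. The E-box of the E proteins, which act early in lymphocyte development, was searched as CAGGTG. TCF/LEF factors, which act in the thymus, were searched as TTCAAAG. Among 32851 RefSeq promoters, 16.8% held the RUNX letters, 35.4% ETS, 11.2% GATA, 20.2% the E-box and 5.14% TCF/LEF. The table held 10 windows for 7 of the 9 members, with none for Cd4 and Cd8b1. Of these windows, 8 held the E-box letters, 7 ETS, 2 RUNX, 1 GATA and 0 TCF/LEF. The Cd3d and Cd3e windows each held 2 ETS matches and 1 E-box match, the Cd3g window 1 GATA and 2 E-box matches, and the Cd8a window no match. A match is a description of the letters and not evidence of binding.

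The CD3 chain genes were higher in the tumors of both arms given palbociclib than in most of the others. In RNA of whole tumors, more T cells and more of these RNAs per T cell cannot be told apart. Cd3e, the CD3 epsilon gene, stood at 1.30, 0.226 and 0.412 FPKM in vehicle replicates 1 to 3, 1.20, 1.26 and 2.14 FPKM with palbociclib, 0.728, 0.256 and 0.677 FPKM with anti-PD-1, and 2.26, 0.730 and 1.80 FPKM with the combination. Vehicle replicate 1 lay within the range of the palbociclib tumors. The combination tumors all lay above the anti-PD-1 tumors, but by little for replicate 2. The arm means were 0.647 ± 0.576, 1.54 ± 0.526, 0.553 ± 0.259 and 1.599 ± 0.786 FPKM (SD, n = 3) in the order vehicle, palbociclib, anti-PD-1 and combination, the order used for every gene from here on.

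Cd3d, the CD3 delta gene, stood at 0.683, 0.294 and 0.410 FPKM in the vehicle tumors, 0.699, 0.915 and 2.10 FPKM with palbociclib, 0.711, 0.278 and 0.367 FPKM with anti-PD-1, and 2.17, 0.661 and 1.96 FPKM with the combination. The lowest palbociclib tumor was just above the highest vehicle tumor, and the lowest combination tumor was below the highest anti-PD-1 tumor. Its arm means were 0.462 ± 0.1998, 1.24 ± 0.753, 0.452 ± 0.229 and 1.597 ± 0.818 FPKM (SD, n = 3). Cd3g, the CD3 gamma gene, which had the highest mean FPKM of the members as deposited, stood at 1.93, 0.243 and 0.739 FPKM in the vehicle tumors, 2.36, 1.91 and 4.57 FPKM with palbociclib, 1.06, 0.459 and 0.809 FPKM with anti-PD-1, and 3.88, 1.31 and 4.48 FPKM with the combination. Vehicle replicate 1 again reached the lowest palbociclib tumor, while the combination and anti-PD-1 tumors did not overlap. The arm means of Cd3g were 0.972 ± 0.870, 2.95 ± 1.42, 0.775 ± 0.300 and 3.22 ± 1.69 FPKM (SD, n = 3).

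The zeta chain gene Cd247 followed the same order at a lower level. Its arm means were 0.102 ± 0.0543, 0.187 ± 0.0276, 0.0672 ± 0.0428 and 0.228 ± 0.122 FPKM (SD, n = 3). The palbociclib tumors, at 0.172, 0.171 and 0.219 FPKM, lay above the vehicle tumors, whose highest was 0.156 FPKM. The combination tumors stood at 0.325, 0.0917 and 0.269 FPKM, and replicate 2 was below the highest anti-PD-1 tumor, at 0.107 FPKM. The lowest value, 0.0222 FPKM in anti-PD-1 replicate 2, rested on 3 fragments.

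**Figure D1:**
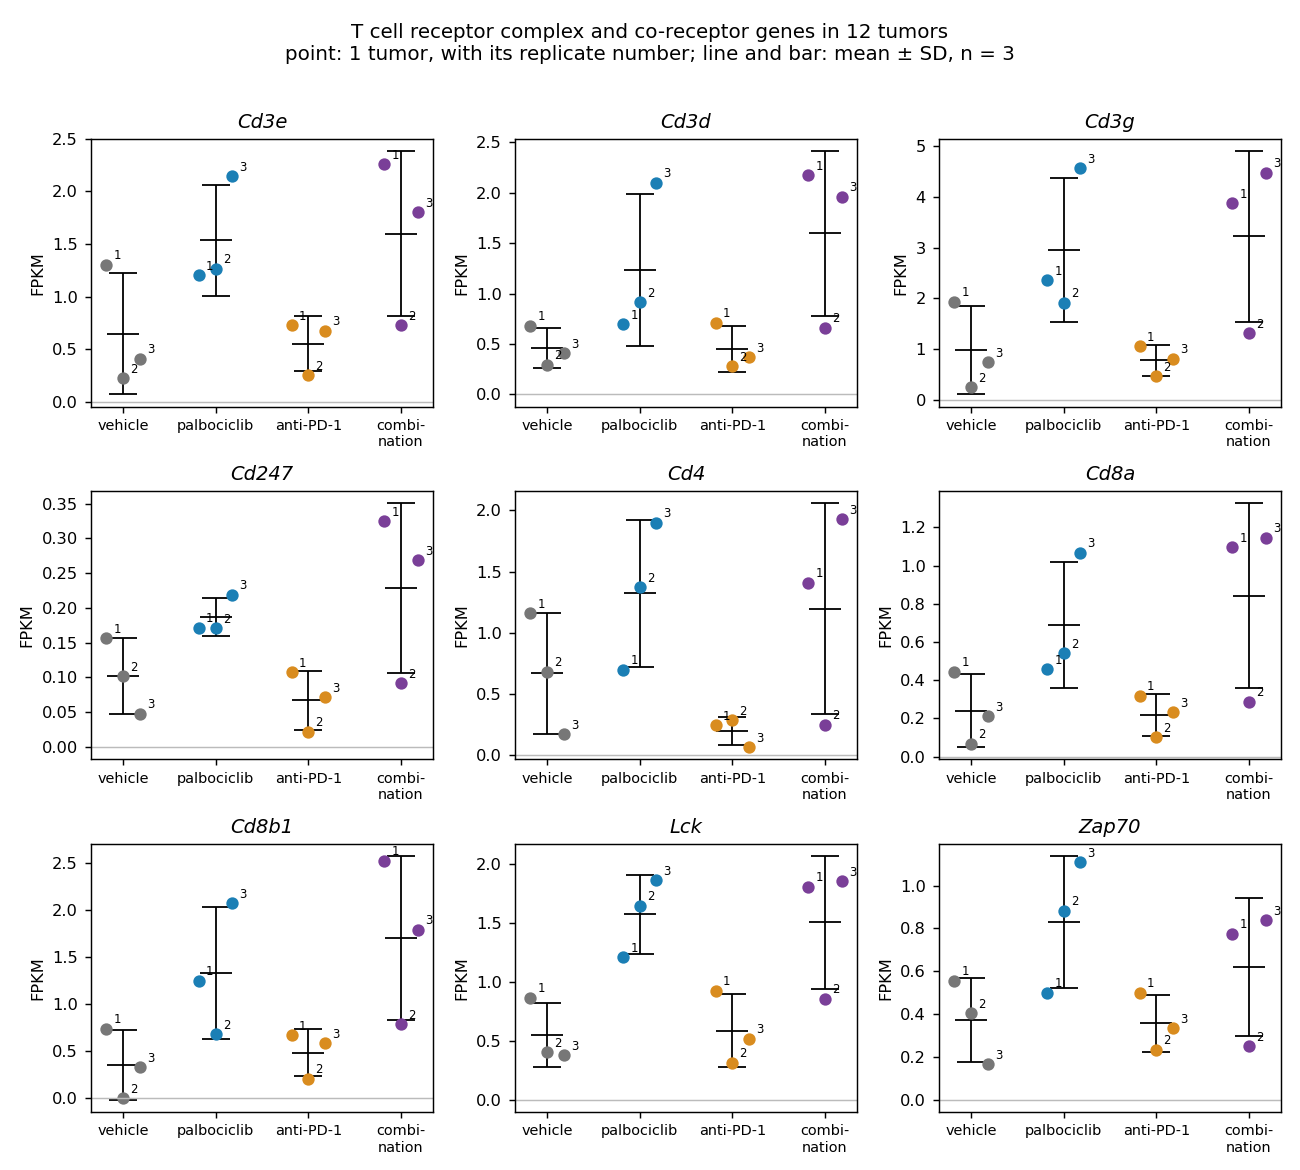
FPKM of the 9 members by arm on linear axes, 1 panel per gene, with a numbered point for each of the 12 tumors and lines and bars for the mean ± SD (n = 3). The palbociclib and combination means are the highest in every panel, combination replicate 2 is the lowest of its arm throughout, and Cd8b1 is at 0 in vehicle replicate 2.

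The co-receptor genes differed widely between tumors of 1 arm. Cd8a, the CD8 alpha chain gene, stood at 0.445, 0.0674 and 0.211 FPKM in the vehicle tumors, 0.457, 0.542 and 1.07 FPKM with palbociclib, 0.319, 0.104 and 0.231 FPKM with anti-PD-1, and 1.10, 0.288 and 1.15 FPKM with the combination. All 3 palbociclib tumors were above all 3 vehicle tumors, by little at the border, and combination replicate 2 lay within the anti-PD-1 range. Its arm means were 0.241 ± 0.190, 0.688 ± 0.330, 0.218 ± 0.108 and 0.843 ± 0.482 FPKM (SD, n = 3).

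Cd8b1, the CD8 beta chain gene, is the more T cell restricted partner of Cd8a. It stood at 0.740, 0 and 0.332 FPKM in the vehicle tumors, 1.25, 0.680 and 2.08 FPKM with palbociclib, 0.669, 0.207 and 0.582 FPKM with anti-PD-1, and 2.53, 0.786 and 1.79 FPKM with the combination. No anti-PD-1 or vehicle tumor reached the lowest combination tumor, while palbociclib replicate 2 was below vehicle replicate 1. The arm means were 0.358 ± 0.371, 1.33 ± 0.702, 0.486 ± 0.246 and 1.70 ± 0.873 FPKM (SD, n = 3).

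Cd4 did not follow the CD8 genes in every tumor. It stood at 1.16, 0.680 and 0.169 FPKM in the vehicle tumors, 0.696, 1.37 and 1.90 FPKM with palbociclib, 0.242, 0.284 and 0.0653 FPKM with anti-PD-1, and 1.41, 0.247 and 1.93 FPKM with the combination. Its lowest values were the 3 anti-PD-1 tumors, vehicle replicate 3 and combination replicate 2. The arm means were 0.669 ± 0.495, 1.32 ± 0.603, 0.197 ± 0.116 and 1.20 ± 0.861 FPKM (SD, n = 3). Vehicle replicate 2 had 52 fragments of Cd4 beside 8 of Cd8a and 0 of Cd8b1, and anti-PD-1 replicate 3 had 6 of Cd4 beside 33 of Cd8a and 16 of Cd8b1.

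Of the kinase genes, Lck overlapped less between the arms than Zap70. Lck stood at 0.865, 0.400 and 0.378 FPKM in the vehicle tumors, 1.21, 1.65 and 1.86 FPKM with palbociclib, 0.923, 0.313 and 0.517 FPKM with anti-PD-1, and 1.81, 0.856 and 1.85 FPKM with the combination. The palbociclib tumors were all above the vehicle and anti-PD-1 tumors, and combination replicate 2 was just below anti-PD-1 replicate 1. Its arm means were 0.548 ± 0.275, 1.57 ± 0.334, 0.584 ± 0.310 and 1.504 ± 0.562 FPKM (SD, n = 3). Zap70 had arm means of 0.374 ± 0.197, 0.831 ± 0.308, 0.356 ± 0.134 and 0.621 ± 0.323 FPKM (SD, n = 3). Its vehicle tumors, at 0.555, 0.402 and 0.165 FPKM, overlapped the palbociclib tumors, at 0.5003, 0.883 and 1.11 FPKM. In the order of arm means the palbociclib and combination arms held the upper 2 places for all 9 members, and for no member did these arms differ from each other, or the vehicle arm from the anti-PD-1 arm, at an unadjusted p under 0.05 in limma.

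The effect of palbociclib was estimated as the mean of its difference without anti-PD-1 (palbociclib minus vehicle) and with it (combination minus anti-PD-1), in a limma model of log2(FPKM + 0.1) over the 15350 genes and 12 tumors. All 9 members had a positive estimate, from 0.73 for Cd247 to 1.79 for Cd3g and Cd8b1, and the median of the 9 was 1.36 on the log2 scale beside 0.06 over all genes tested. At an adjusted p under 0.05, 0 of the 9 members were called, against 0.313% of all genes (48 genes, 38 higher and 10 lower). At an unadjusted p under 0.05 all 9 members were higher, against 14.1% of all genes. Without Cd247, which passed the filter through the arms given palbociclib, 8 of 8 were higher unadjusted with a median of 1.36. The members are not independent of each other, as the tumors high in one were mostly high in the others.

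Lck came closest to the threshold, with a palbociclib effect of 1.34 on the log2 scale (SE 0.28, adjusted p = 0.0736). Cd3g followed at 1.79 (SE 0.45, adjusted p = 0.0885) and Cd3d at 1.36 (SE 0.36, adjusted p = 0.0959). The remaining adjusted p-values of limma ran from 0.112 for Cd8a to 0.209 for Zap70. The CD8 chains had effects of 1.37 (SE 0.39) for Cd8a and 1.79 (SE 0.51) for Cd8b1, and Cd3e had 1.35 (SE 0.40). Cd4, at 1.46 with a 95% interval of 0.34 to 2.57, had one of the widest intervals, and Cd247 and Zap70 had the smallest effects, 0.73 (0.15 to 1.32) and 0.79 (0.08 to 1.51). The level of Cd247 was near the 0.1 FPKM added before the log, which understates its effect. Under other pseudocounts, filters and scalings and the replicate block, Cd247 ranged from 0.15 to 1.29 and Zap70 from 0.33 to 0.94.

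**Figure D2:**
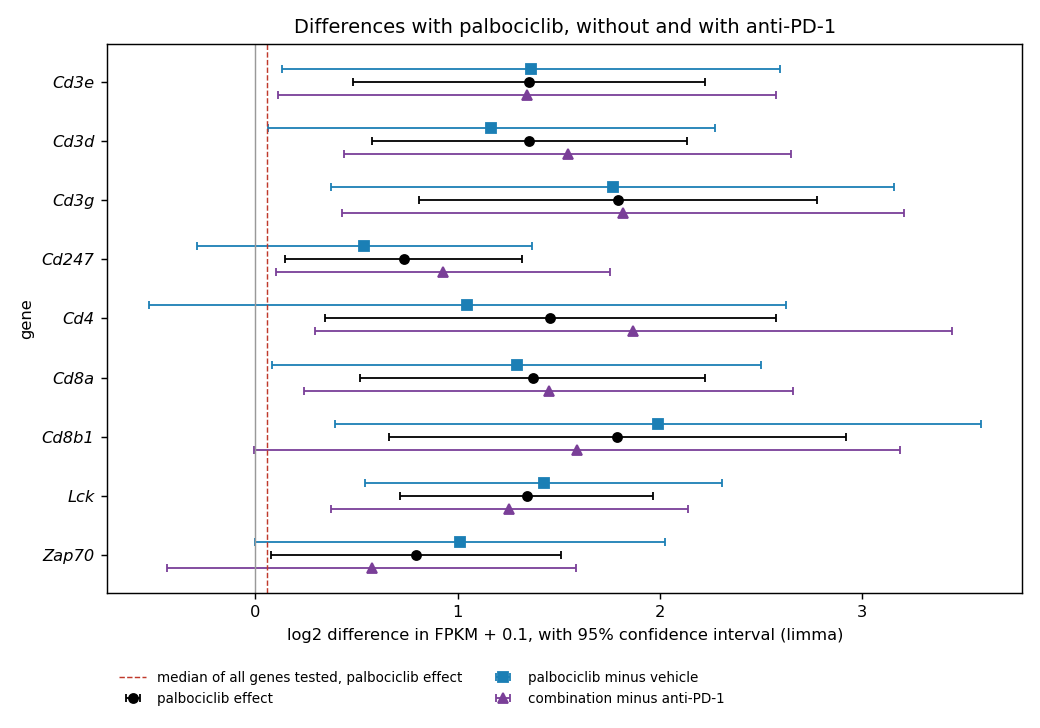
Palbociclib effect on each member, as the difference in log2(FPKM + 0.1) with its 95% interval from limma (black circles), and the separate differences without anti-PD-1 (blue squares) and with it (purple triangles); the dashed line is the median effect over all genes, 0.06. All 9 intervals of the mean effect lie above 0, from Cd247 at 0.73 to Cd3g and Cd8b1 at 1.79, while none of the 9 passed an adjusted p of 0.05. The effect of Cd247, whose level was near the added 0.1 FPKM, is understated.

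Single tumors decided these calls. Without vehicle replicate 1, the tumor with the highest level of its arm in all 9 members, 5 members passed (Cd3e, Cd3g, Cd8a, Cd8b1 and Lck, with adjusted p from 0.0282 to 0.0476). Without combination replicate 2, the lowest of its arm in all 9 members, 4 passed (Cd3d, Cd3g, Cd8a and Lck), and without anti-PD-1 replicate 1, 2 passed (Cd3d and Lck). Over all genes the calls were 692, 264 and 758 in these fits, so the count of calls in general moved with them too. No member passed when any of the other 9 tumors was left out, and no member's effect turned negative, with Cd3e between 1.12 and 1.65 and Cd4 between 1.15 and 1.85 on the log2 scale.

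Within the arms without anti-PD-1, palbociclib minus vehicle gave a median of 1.29 over the members on the log2 scale, from 0.54 for Cd247 to 1.99 for Cd8b1, beside 0.07 over all genes. No member was called by limma (0 of 9, against 0.143% of all genes), and 6 were higher at an unadjusted p under 0.05 (Cd3d, Cd3e, Cd3g, Cd8a, Cd8b1 and Lck), against 9.43% of all genes. The lowest adjusted p was 0.211, for Lck. Tumors of these 2 arms did not overlap for 4 members, Cd3d, Cd247, Cd8a and Lck, and 12.9% of all genes had their palbociclib tumors above their vehicle tumors in this way.

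With anti-PD-1 given to both arms, combination minus anti-PD-1 gave a median of 1.45 over the members, from 0.58 for Zap70 to 1.87 for Cd4, beside 0.05 over all genes. By limma 0 of 9 members were called, against 0.00651% of all genes, and 7 were higher at an unadjusted p under 0.05, all but Cd8b1 and Zap70, against 7.61% of all genes. Cd3e, Cd3g and Cd8b1, 3 of the 9, did not overlap between these arms, as 11.4% of all genes did not in this direction. The difference between the palbociclib effects with and without anti-PD-1, the interaction, ran from -0.44 for Zap70 to 0.82 for Cd4. None of the 9 passed (0% of all genes called, adjusted p at least 0.951), and at an unadjusted p under 0.05 there were 0 members against 5.73% of all genes (879 genes). The intervals were wide, since the SE of the interaction was 1.01 for Cd4 and 0.57 for Lck.

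Anti-PD-1 alone left the members' median near that of vehicle, with a difference of -0.00225 on the log2 scale beside -0.03 over all genes. By limma 0 members were called, against 0% of all genes, and 0 passed an unadjusted p under 0.05, against 8.4% of all genes (1289 genes). Cd4 had the most negative difference of the members, -1.20 (SE 0.72, adjusted p = 0.655), and Cd8b1 the most positive, 0.72 (SE 0.73, adjusted p = 0.797). Cd3e, Cd3d, Cd3g, Cd8a, Lck and Zap70 lay within 0.1 of 0.

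The combination exceeded vehicle by a median of 1.33 over the members, from 0.57 for Zap70 to 2.31 for Cd8b1. None of the 9 was called by limma (0.013% of all genes), and the same 6 members as for palbociclib alone were higher at an unadjusted p under 0.05 (8.64% of all genes); the 2 comparisons share the vehicle tumors. Only Cd8b1, 1 of the 9, did not overlap between combination and vehicle, against 10.8% of all genes. Against palbociclib alone, the combination differed by a median of 0.05, from -0.44 for Zap70 to 0.33 for Cd3d. Of the members 0 were called (0.00651% of all genes) and 0 passed an unadjusted p under 0.05 (4.52% of all genes). With SE from 0.38 to 0.73 in every comparison of 3 tumors against 3, differences of this size were not detectable at this depth and replication.

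Cd4 was compared with Cd8a and Cd8b1 within each tumor, as the difference in log2(FPKM + 0.1), called the log2 ratio. Cd4 to Cd8a stood at 1.21, 2.22 and -0.21 in the vehicle tumors, 0.52, 1.20 and 0.78 with palbociclib, -0.29, 0.92 and -1.004 with anti-PD-1, and 0.34, -0.16 and 0.70 with the combination. The 3 palbociclib tumors were the closest together, and the vehicle and anti-PD-1 arms each held tumors on both sides of 0. The arm means were 1.07 ± 1.22, 0.83 ± 0.34, -0.13 ± 0.97 and 0.29 ± 0.43 (SD, n = 3).

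No effect of palbociclib on the balance of the co-receptors was detected. Its effect on the log2 ratio was 0.09 for Cd4 to Cd8a (exact permutation test within the pairs of arms, 400 relabelings, two-sided p = 0.87), -0.33 for Cd4 to Cd8b1 (p = 0.67) and -0.42 for Cd8a to Cd8b1 (p = 0.18). Adjusted over these 3 ratios the permutation p-values were 0.87, 0.87 and 0.54, and the smallest p that the 400 relabelings can give is 0.005. Leaving out single tumors moved the effect on Cd4 to Cd8a between -0.23 and 0.37, so its sign is not set by these data, and vehicle replicate 2 alone turned that on Cd4 to Cd8b1 to 0.17. Between single arms, which allow no p below 0.1, every exact permutation p was 0.2 or more. The most negative of these differences was that of Cd4 to Cd8b1 between anti-PD-1 and vehicle, at -1.92.

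**Figure D3:**
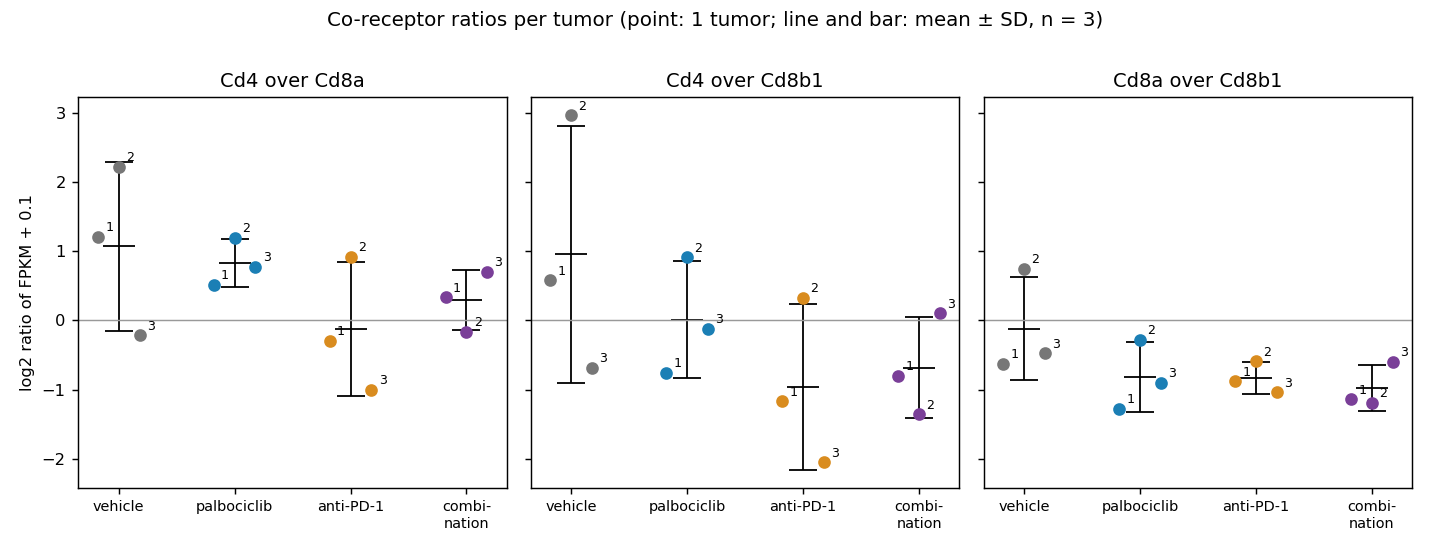
Difference in log2(FPKM + 0.1) between Cd4 and Cd8a, Cd4 and Cd8b1, and Cd8a and Cd8b1 in each tumor, by arm, with a numbered point per tumor and the mean ± SD (n = 3). Ratios to Cd4 spread over both sides of 0, most widely in the vehicle arm, where replicate 2 reaches 2.22 and 2.96, and Cd8a to Cd8b1 runs from -1.28 to 0.74.

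The counting intervals of the tumors with the highest and the lowest Cd4 to Cd8a ratio did not overlap. Vehicle replicate 2 had a Cd4 to Cd8a FPKM ratio of 10.1, with an exact binomial 95% interval of 4.76 to 24.6 from its 52 and 8 fragments. Anti-PD-1 replicate 3 had a ratio of 0.282 (0.0966 to 0.682) from 6 and 33 fragments. The intervals of these tumors cover counting error alone. These tumors were picked as the extremes of the 12, and the intervals make no allowance for that choice. In the same vehicle tumor Cd8b1 was at 0 fragments, and 3 fragments, taken as the limit that a count of 0 allows, equal 0.131 FPKM of Cd8b1 in that tumor. The exact two-sided Poisson 95% interval of this 0 reaches 3.69 fragments, or 0.161 FPKM.

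The level of Cd4 against Cd8 over all tumors depended on the gene length used to make FPKM. The deposited values mostly matched a length that adds up all distinct exons of a gene, which counts overlapping exons more than once. Of 6724 genes of low level with whole fragments recovered, 77.4% matched such sums within 0.2%, and 31.8% matched the merged exon length. The depth used for this match was itself set from the sums. For Cd8a the length implied by the values was 7693 bases against a merged length of 3637, 2.12 times as long, for Cd4 4960 against 4032, and for Cd8b1 1482 against 1483. The CD3 chain genes did not match such sums: the implied length was 1436 bases for Cd3e against a sum of 4486, 1323 for Cd3d against 2158 and 1335 for Cd3g against 3580, and the length behind their FPKM is not known. As deposited, Cd4 was above Cd8a in 8 of 12 tumors, with a mean log2 ratio of 0.52 (exact sign-flip permutation test, p = 0.0586, adjusted p = 0.0879), and Cd8a was above Cd8b1 in 1 of 12, with a mean of -0.69 (p = 0.00342, adjusted p = 0.0103). With merged exon lengths, an alternative chosen after seeing the data, these means were -0.11 and 0.18 and both directions turned (exact permutation test, adjusted p = 0.859 and 0.604). In fragments, Cd4 had 811 over the 12 tumors, Cd8a 758 and Cd8b1 286. Which of the co-receptor genes was the more abundant is therefore not set by these values. The ratio of 1 gene's FPKM between tumors does not depend on its length, but its difference in log2(FPKM + 0.1) does where the level is near 0.1.

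Cd8a and Cd8b1 followed each other closely across the 12 tumors, and Cd4 followed them less closely. On the log2 scale Cd8a and Cd8b1 had a Pearson r of 0.930 (permutation p = 1e-05, the smallest that the permutations can give, adjusted p = 3e-05) and a Spearman rho of 0.909 (p = 0.00014). With arm means subtracted r was 0.890, and without the 2 tumors farthest from the median of the x axis it was 0.941. For Cd4 and Cd8a r was 0.724 (permutation p = 0.00916, adjusted p = 0.0137) and rho 0.797 (p = 0.00296), r was 0.590 with arm means subtracted (adjusted p = 0.0682), and 0.746 without the 2 farthest tumors. For Cd4 and Cd8b1 r was 0.475 (permutation p = 0.117) and rho 0.699 (p = 0.0143), r was 0.257 within arms and 0.498 without the 2 farthest tumors. These 3 relations were tested, and the differences between their coefficients were not. The permutations moved values freely over all tumors and did not keep to the arms, in which both genes can shift. With arm means subtracted the values are no longer free within an arm, so those p-values tend to be too small.

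Over all 36 pairs of members r had a median of 0.881. Pairs of the CD3 chains ran from 0.924 to 0.977, and Cd3g with Cd8a reached 0.984. The 8 pairs with Cd4 ran from 0.475 to 0.859, and the 28 pairs without it from 0.618 to 0.984. These coefficients are given as a description, since all genes of a tumor share its library and depth. Combination replicates 1 and 3 and palbociclib replicate 3 were among the 3 highest tumors for 8, 9 and 9 of the members, and vehicle replicate 3 and anti-PD-1 replicate 2 were among the 3 lowest for 8 members each.

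Counting error was the smaller part of the spread in FPKM between tumors of an arm, but it limited single values. The members had 4598 fragments in all, and 12 of their 108 values rested on fewer than 10 fragments, with 1 value at 0. The median count per tumor was 76 fragments for Lck, 54 for Cd4, 50 for Cd8a, 35 for Zap70, 34 for Cd3g, 23.5 for Cd3e, 18.5 for Cd247, 18 for Cd8b1 and 15 for Cd3d. At these medians the counting error was 11.5% for Lck and 25.8% for Cd3d. Of the variance of FPKM within arms, counting error made up 3.11% for Cd4, 4.05% for Cd8a, 6.34% for Cd3g and 9.11% for Lck. It made up 10.9% for Cd8b1, 12.5% for Zap70, 13.0% for Cd3d, 14.2% for Cd3e and 21.3% for Cd247. The share was not computed on the log2 scale of the tests, where tumors with low counts weigh more. A tumor needed 0.0192 to 0.0262 FPKM of Cd8a, but 0.103 to 0.141 FPKM of Cd3e, to yield 3 fragments.

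**Figure D4:**
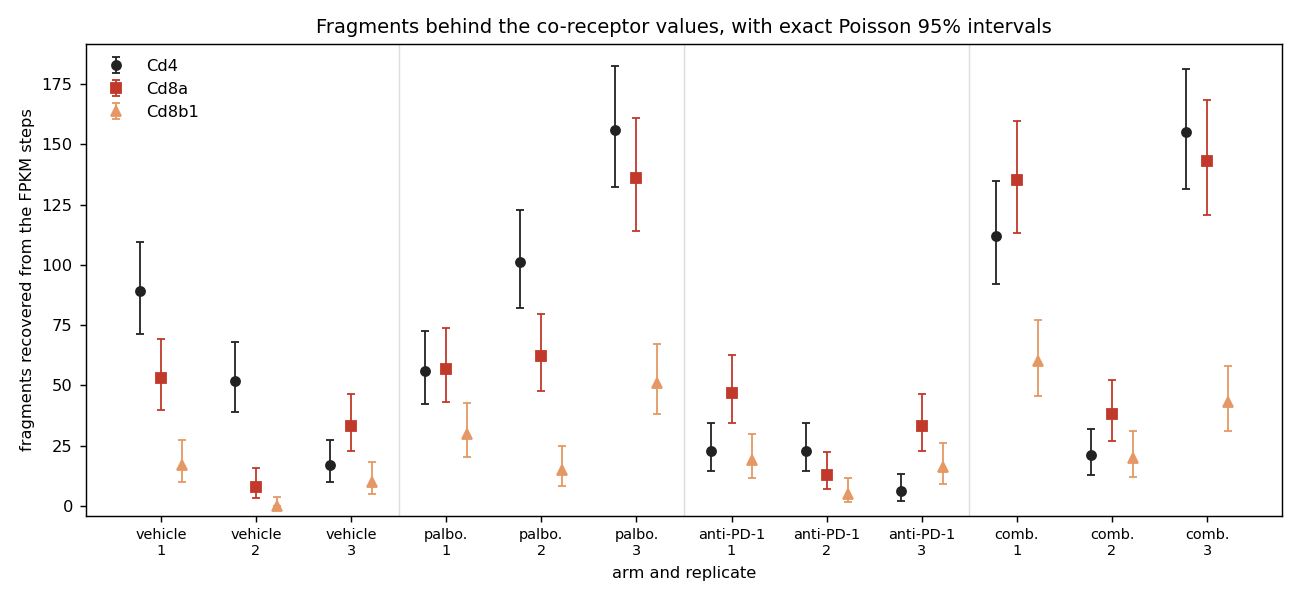
Whole fragments recovered from the FPKM steps for Cd4, Cd8a and Cd8b1 in each of the 12 tumors, on a linear axis, with exact Poisson 95% intervals that cover counting error only. Cd4 (52 fragments) stands far above Cd8a (8) and Cd8b1 (0) in vehicle replicate 2 and below both in anti-PD-1 replicate 3 (6 against 33 and 16).

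Genes whose pattern over the 12 tumors was most like that of a member were ranked by Pearson r of log2 values among 12415 genes with a mean of at least 0.5 FPKM, without the members. The closest to Cd3e were Pdcd1, which encodes PD-1 (r = 0.972), Marcks (0.961), Tgtp2 (0.958), Psmb8, an immunoproteasome subunit (0.949), and Cxcr6, a chemokine receptor of tissue T cells (0.949). The closest to Cd8b1 were Gbp6, a guanylate-binding protein gene (0.930), Fbxo5 (0.924), Pdcd1 (0.921), Tgtp2 (0.918) and Tgtp1 (0.918). Tgtp1 and Tgtp2 are near-identical copies, and their values are uncertain because counting could split their reads. The 5 closest to Cd4 were others: the chemokine gene Ccl8 (0.955), the costimulatory ligand gene Cd86 (0.947), Pltp (0.941), Cd83, a marker of activated dendritic and B cells (0.936), and Cd22, a surface protein of B cells (0.933).

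Other genes of the receptor pathway had lower median palbociclib effects than the members. The 0.1 FPKM added before the log understates effects of genes near that level, such as Ubash3a below. List medians therefore also depend on expression level, and their differences were not tested. Over all genes tested, 59.8% had an effect above 0 and 14.1% were higher at an unadjusted p under 0.05. Of 18 listed genes of proximal signalling 17 were tested, 15 were above 0 and 10 were higher at an unadjusted p under 0.05, with a median of 0.66 on the log2 scale, while limma called 0 after adjustment. Lat, the scaffold that ZAP-70 phosphorylates, had 1.18 (adjusted p = 0.0804), and Ubash3a, a negative regulator of receptor signalling, 1.15 (adjusted p = 0.0736), while Plcg1, a widely expressed phospholipase, had -0.13. Ubash3a, at a mean of 0.0646 FPKM without palbociclib and 0.275 FPKM with it, and Skap1 passed the filter through the arms given palbociclib, and of the other 15 genes 8 were higher unadjusted with a median of 0.59. Of 16 other T cell surface and identity genes 14 were tested, 14 were above 0 and 8 passed unadjusted, with a median of 0.70 and 0 called (0.67 without Trdc, which passed the filter through the arms given palbociclib). Trac, the constant region of the receptor alpha chain, had 1.55 (adjusted p = 0.0561), and Trbc2, of the beta chain, 1.52 (adjusted p = 0.0654). Trbc1 and Trbc2 are near-identical and uncertain. Cd5, a surface inhibitor of receptor signalling, had 1.49 (adjusted p = 0.0736), Cd6 1.17 (adjusted p = 0.0654), and Il7r, the receptor for interleukin 7, 0.01.

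Genes of the CD4 and CD8 lineages had effects nearer 0 than the co-receptors. In RNA of whole tumors these lists do not measure CD4 or CD8 T cells alone, and Gzmb and Prf1 are also among the NK cell genes below. In vehicle replicate 2 the CD8 lineage and effector genes summed to 51.2 FPKM, beside 0.0674 FPKM of Cd8a and 0 of Cd8b1. Of 5 CD4 lineage genes 3 were tested and none passed unadjusted: Zbtb7b, which directs the CD4 fate, had 0.14, Il2ra 0.36 and the checkpoint gene Ctla4 -0.52. Foxp3, the regulatory T cell factor, and Cd40lg, the helper T cell ligand, were under the filter. Cd40lg was listed at 0 in the 6 tumors without palbociclib, and had 3, 1 and 1 fragments with palbociclib and 0, 4 and 2 with the combination. Of 6 CD8 lineage and effector genes 5 were above 0 with a median of 0.32, and 2 passed unadjusted, Gzmk (1.01), a granzyme, and Ccl5 (0.97), a chemokine of effector T and NK cells. Gzmk passed the filter through the arms given palbociclib (0.0886 FPKM without and 0.293 FPKM with it), and the other 5 genes had a median of 0.24 with 1 higher unadjusted. Runx3, which directs the CD8 fate, had -0.27, the granzyme gene Gzmb 0.40 and the perforin gene Prf1 0.10. Over all genes tested 14.1% were higher unadjusted, and limma called 0 genes of either list after adjustment.

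**Figure D5:**
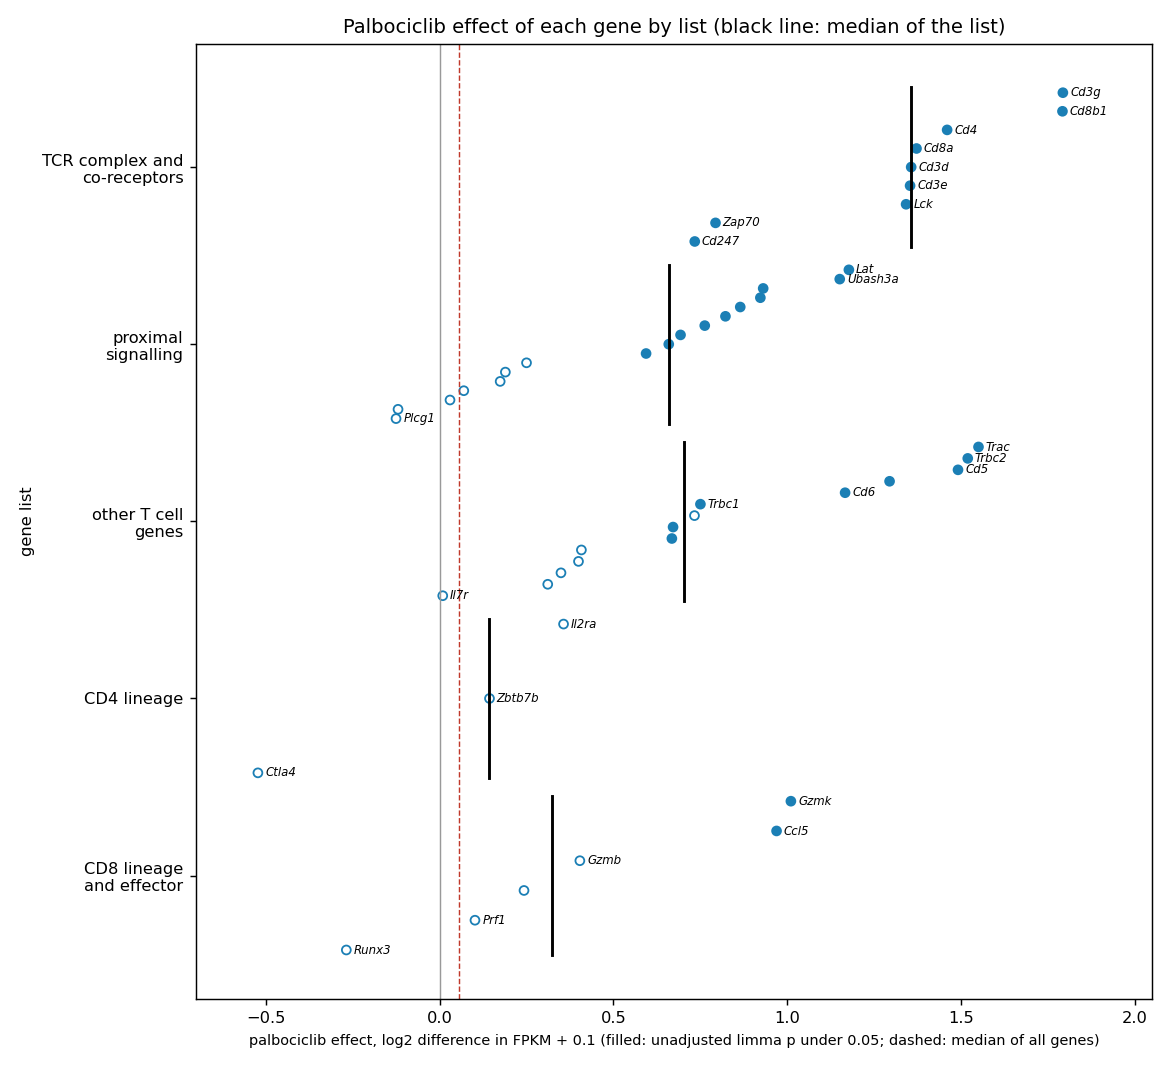
Palbociclib effect, as the difference in log2(FPKM + 0.1), of each tested gene of the members and the 4 other T cell lists, filled where the unadjusted limma p was under 0.05, with labels for genes given in the text, list medians as black lines and the median of all genes dashed. The median of the 9 members, 1.36, lies above those of proximal signalling (0.66), other T cell genes (0.70), CD8 lineage and effector genes (0.32) and CD4 lineage genes (0.14). Effects of genes near 0.1 FPKM are understated, so the medians also depend on expression level.

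Marker lists of other cells also differed between the tumors, and their part in the members' differences was not tested. The summed level of 3 pan-leukocyte genes (Ptprc, Coro1a and Laptm5) was 16.0 to 31.5 FPKM in the vehicle tumors, 29.4 to 45.4 FPKM with palbociclib, 15.6 to 26.8 FPKM with anti-PD-1 and 20.03 to 42.3 FPKM with the combination, with a median palbociclib effect of 0.72, and 2 of 3 passed unadjusted. The summed level of the 9 members was 2.41 to 7.84, 8.54 to 17.04, 2.16 to 5.25 and 5.22 to 16.3 FPKM in the same order. NK cell genes, 9 of 9 above 0 with 2 higher unadjusted (Ncr1 and Nkg7) against the 14.1% of all genes, had a median effect of 0.54, and their sum was 40.2 to 73.6, 78.5 to 94.6, 67.5 to 79.4 and 52.1 to 83.8 FPKM.

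The myeloid lists were mixed. Of 6 macrophage genes 5 were above 0, 2 were higher unadjusted (Adgre1 and Csf1r) and 1 lower (Cd14), with a median of 0.44, and sums of 110 to 186, 157 to 244, 91.9 to 204 and 101 to 194 FPKM. The dendritic cell genes, 5 tested of 6, were all 5 above 0 with none passing unadjusted and a median of 0.66 (0.44 without Xcr1, which passed the filter through the arms given palbociclib), and their sums were 2.04 to 5.20, 4.94 to 6.21, 2.21 to 2.84 and 2.27 to 5.42 FPKM. Of 4 plasmacytoid dendritic cell genes 2 were tested and both were above 0. The widely expressed Bst2 (0.49, higher unadjusted) made up nearly the whole of their sum, and Siglech and Ccr9 were under the filter. Of 5 B cell genes 3 were tested, with a median of 0.96 and 2 higher unadjusted (Cd22 and Cd79b), and Ms4a1 was under the filter. The 4 neutrophil genes were all below 0, with a median of -1.69, and 3 were lower unadjusted. Over all genes tested, 14.1% were higher unadjusted and 20.5% passed unadjusted in either direction.

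Genes of adjoining tissue were high in single tumors. The summed level of 5 skeletal muscle genes was 143 FPKM in combination replicate 2, the lowest tumor of its arm in all 9 members, against 0.859 and 5.69 FPKM in the other combination tumors. It was 147 FPKM in palbociclib replicate 3, among the 3 highest tumors for all 9 members, and 51.1 FPKM in vehicle replicate 1. In vehicle replicates 2 and 3 and anti-PD-1 replicate 2, where the members had their lowest median ranks, the muscle sum was 0.791, 1.25 and 0.729 FPKM. The sum of 5 skin genes was 360 FPKM in palbociclib replicate 2 and at most 0.910 FPKM in every other tumor. The sum of 5 adipose genes was 112 FPKM in palbociclib replicate 1 and 275 FPKM in combination replicate 1, and 0.813 to 11.1 FPKM in the others. The 5 skin genes and 4 of the 5 adipose genes passed the filter through the arms given palbociclib, so no count or median is given for them, and none of the 5 muscle genes passed an unadjusted p under 0.05.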

How the data were processed

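RNA of 12 tumors was sequenced, 3 per arm, and arms were taken from the treatment labels. The authors aligned reads with HISAT2 to GRCm38/mm10 and deposited FPKM per gene for each tumor; versions, the counting tool, the annotation and the use of strand are not given in the sources used here. Repeated symbols (67 of 34745 entries) were reduced to the entry with the highest mean. Values were tested as log2(FPKM + 0.1), so fold changes of low genes are understated, for genes with a mean of at least 0.1 FPKM, in 1 limma fit over the 4 arms (limma 3.58.1, R 4.3.3, empirical Bayes with trend, Benjamini-Hochberg adjustment over 15350 genes). No count test was run, since the values are FPKM and whole fragments came out for part of the genes. Whole fragments were recovered from FPKM steps, with 89.5% of 7512 genes tried whole within 0.03 fragments or 0.08%, and served for depth and exact binomial intervals, which cover counting error only. Ratios were tested by exact permutation of tumors within the pairs of arms and correlations by random permutation (scipy 1.17.1). Genes were named as the 9 members, the 5 genes most like Cd3e, Cd4 and Cd8b1 by Pearson r, and listed pathway and marker genes. The members and lists were chosen with earlier results of these data known. The fits were tested on simulated data. Alternatives were other pseudocounts, filters and scalings, a replicate block, each tumor left out and, added after seeing the data, other gene lengths. Values of some listed genes are not reported here.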

Additional observations from a re-analysis of the deposited data

How the results depend on the processing

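The palbociclib effect kept its positive sign for all 9 members under every alternative run, except that a filter at a mean of 1 FPKM left 3 members to test. The number of members past an adjusted p of 0.05 in limma, 0 in the report, was 0 to 5 with single tumors left out and 3 with a replicate block (Cd3g, Cd8b1 and Lck). Whether replicate numbers pair the tumors is not settled by these values, and no share expected by chance was computed. Of 18 same-numbered pairs, 7 had deviations from the arm means that correlated above 0.1. Their r ran from -0.21 to 0.45 with a median of 0.03, and 6 of 12 tumors correlated best with their own number. The calls over all genes, 48 for the palbociclib effect, were 129 with the block, 11 without a filter, and 0 in limma without the trend in its empirical Bayes step (3035 at an unadjusted p under 0.05, against 3154). For palbociclib minus vehicle they were 22, and 51 with the block, 6 without the trend, 34 after rescaling to TPM, 1 after quantile normalization, and 0 in limma over these 2 arms alone (1911 unadjusted). No member was called in these fits other than the 3 with the block.

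The co-receptor ratios depended more on the settings. For Cd4 to Cd8a, the palbociclib effect was -0.054 with merged exon lengths, -0.027 with the longest coding transcript, and -0.23 to 0.37 with single tumors left out, negative without vehicle replicate 3, palbociclib replicate 2, anti-PD-1 replicate 3 or combination replicate 3. Its mean over the 12 tumors was 0.25 with a pseudocount of 1 (adjusted permutation p = 0.0278), -0.11 with merged lengths and 0.36 to 0.66 with single tumors left out, past the threshold without anti-PD-1 replicate 3. For Cd4 to Cd8b1 the effect was -0.74 to 0.17 with single tumors left out, and the mean was 0.074 with merged lengths, 0.39 with the longest transcript and -0.46 to 0.000287 with single tumors left out. Its difference between anti-PD-1 and vehicle was -0.59 with a pseudocount of 1 and -3.26 with 0.01. For Cd8a to Cd8b1 the mean was 0.18 with merged lengths, 0.37 with the longest transcript, -0.64 with a pseudocount of 0.01 and -0.70 after rescaling to TPM, the latter 2 no longer past the threshold (adjusted permutation p = 0.168 and 0.0645). With a pseudocount of 0.01 its differences from vehicle were -1.44 for palbociclib, -1.62 for anti-PD-1 and -1.62 for the combination, and with 1 that for anti-PD-1 was -0.17. Vehicle replicate 2 held the 0 of Cd8b1. The correlation of Cd4 with Cd8a was 0.590 with arm means subtracted (permutation test that did not keep to the arms, adjusted p = 0.0682). Where no reason is given, the cause was not tested.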
